A study of Homo sapiens with 3 samples.

Results

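The cells described here are those of the human hypopharyngeal squamous carcinoma line FaDu and of a subline resistant to TPF, whose single-cell RNA libraries held the most mRNA of the HIST1H histone genes. In each library, barcodes with at least 5000 UMIs (counted RNA molecules) and at most 20% mitochondrial UMIs were ranked by the summed UMIs of all genes whose symbol starts with HIST1H, divided by the UMIs of the barcode. The top 10% were taken as histone-rich, which gave 1759 of 17590 such cells, out of 21857 deposited barcodes. They were 598 of 5979 cells of FaDu given cinobufotalin (the FaDu cinobufotalin library), 466 of 4657 resistant cells with TPF (the resistant TPF library) and 695 of 6954 resistant cells with TPF and cinobufotalin (the resistant TPF cinobufotalin library). Values in a series of 3 follow this library order throughout. TPF is the combination of paclitaxel, cisplatin and 5-fluorouracil, and cinobufotalin is a bufadienolide, a steroid of toad venom. The labels give no dose or duration, the resistant line is a single line, and FaDu cells without drug were not analysed here. Each group was 1 library, so line, treatment and library cannot be told apart and no test between groups was made.

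Histone genes of the HIST1 cluster lie together on the short arm of chromosome 6 and supply most of the core histones H2A, H2B, H3 and H4 and the linker histone H1 that package newly copied DNA. Their mRNAs accumulate in S phase and are destroyed when DNA synthesis stops. Most end in a stem-loop rather than a poly(A) tail, while some of these genes can also give longer, polyadenylated mRNAs that end past the stem-loop. Libraries primed on poly(A) tails, as these were, see the first kind poorly, so the level measured here is not the whole of a cell's histone mRNA.

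Of 68 HIST1H features in the files, 60 had at least 1 UMI in these cells, 17 had a mean of at least 10 CPM (UMIs scaled to the same total in each set of cells) and 31 stayed under 1 CPM. The sequences below show the stem-loop in gene models that run on past it, because values in cells chosen by immediate early genes are later given by this feature. The letters are from GENCODE release 29 transcripts on GRCh38, read along the transcript, and capitals mark the paired stem. For HIST1H2AC (chr6:26124669-26124684, plus strand) the longest model went on for 1128 bases after the loop. For HIST1H2BC (chr6:26123472-26123487, minus strand) it went on for 116 bases, for HIST1H4H (chr6:26285131-26285146, minus strand) for 1655 bases and for HIST1H2BD (chr6:26158587-26158602, plus strand) for 39 bases.
HIST1H2AC: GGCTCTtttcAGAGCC
HIST1H2BC: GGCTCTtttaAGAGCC
HIST1H4H: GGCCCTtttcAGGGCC
HIST1H2BD: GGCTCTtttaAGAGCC

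Of the 23 HIST1H genes at 5 CPM or more, 11 had a model with such a stem-loop. The search took only a perfectly paired stem beginning with GG and a loop beginning with TT. The models of HIST1H4C and of the 5 H1 genes held none, and each was a single exon of at most 754 bases, close to the coding sequence alone. The model of HIST1H2AC spans 14972 bases (chr6:26124145-26139116) with 2 exons, against 666 bases for HIST1H1D (chr6:26234268-26234933). Reads of HIST1H3J and HIST1H2AM, of HIST1H2BN and HIST1H2AL, and of HIST1H2BD and HIST1H2BE with a gene on the other strand may be split between overlapping models, since the sources used here do not say how strand was treated.

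Promoters are shown for 3 linker histone genes and for an H2B and an H2A gene, since these H1 genes were at least 1.5-fold higher in cells chosen by S phase genes, and the other pair in cells chosen by immediate early genes, in the values that follow. Each is the 150 bases before the RefSeq start (GRCh38.p14), along the gene. Capitals mark AAACACA (known as the H1 box), CCAAT and ATTTGCAT (the octamer, a binding site of POU2F1), each searched on both strands, so that ATTGG and ATGCAAAT are CCAAT and ATTTGCAT of the other strand. HIST1H1D is at chr6:26234988-26235137 (minus strand), HIST1H1B at chr6:27867589-27867738 (minus), HIST1H1E at chr6:26156179-26156328 (plus), HIST1H2BJ at chr6:27132796-27132945 (minus) and HIST1H2AC at chr6:26124022-26124171 (plus).
HIST1H1D: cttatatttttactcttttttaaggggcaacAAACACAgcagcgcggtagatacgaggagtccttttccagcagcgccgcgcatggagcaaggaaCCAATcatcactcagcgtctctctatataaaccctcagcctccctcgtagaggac
HIST1H1B: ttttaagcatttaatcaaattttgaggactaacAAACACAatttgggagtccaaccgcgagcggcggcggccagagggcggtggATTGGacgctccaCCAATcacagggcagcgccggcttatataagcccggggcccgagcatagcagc
HIST1H1E: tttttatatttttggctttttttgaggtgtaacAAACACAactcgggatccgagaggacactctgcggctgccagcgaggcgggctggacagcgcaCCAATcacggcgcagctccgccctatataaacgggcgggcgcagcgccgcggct
HIST1H2BJ: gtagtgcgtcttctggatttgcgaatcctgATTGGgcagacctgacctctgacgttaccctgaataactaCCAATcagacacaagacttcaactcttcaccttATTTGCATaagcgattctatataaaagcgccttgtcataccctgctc
HIST1H2AC: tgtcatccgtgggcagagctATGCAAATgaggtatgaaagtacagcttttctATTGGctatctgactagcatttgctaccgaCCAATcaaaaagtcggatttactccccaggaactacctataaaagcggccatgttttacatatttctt

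AAACACA started at -119 in HIST1H1D, -117 in HIST1H1B and -117 in HIST1H1E, counted from the RefSeq start. Within 250 bases it was present in 5 of 5 H1 promoters, in HIST1H1A on the other strand only, and in 0 of the other 11 HIST1H promoters with an entry, against 4.82% of 35116 promoters of that length. CCAAT was in 15 of 16 HIST1H promoters and 32% of all promoters. ATTTGCAT was in 7 of 16, none of them an H1 promoter, and in 1.63% of all. HIST1H4C had no promoter entry. These matches describe the letters only.

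The HIST1H share of a cell's UMIs had a single broad peak with a tail in each library, so the histone-rich cells are the upper end of a range, without a gap below them. The share at which the top 10% began was 0.244%, 0.355% and 0.373%. The 50 cells just inside spanned 0.244% to 0.251% in the FaDu cinobufotalin library and the 50 just outside 0.237% to 0.244%; in the resistant TPF library these ranges were 0.355% to 0.364% and 0.343% to 0.355%, and in the resistant TPF cinobufotalin library 0.373% to 0.381% and 0.365% to 0.372%. A histone-rich cell held a median of 69.5, 122 and 85 HIST1H UMIs, against 25, 43 and 28 in the other cells of the same library. The highest share of any cell was 0.984%, 1.41% and 1.56%.

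**Figure D1:**
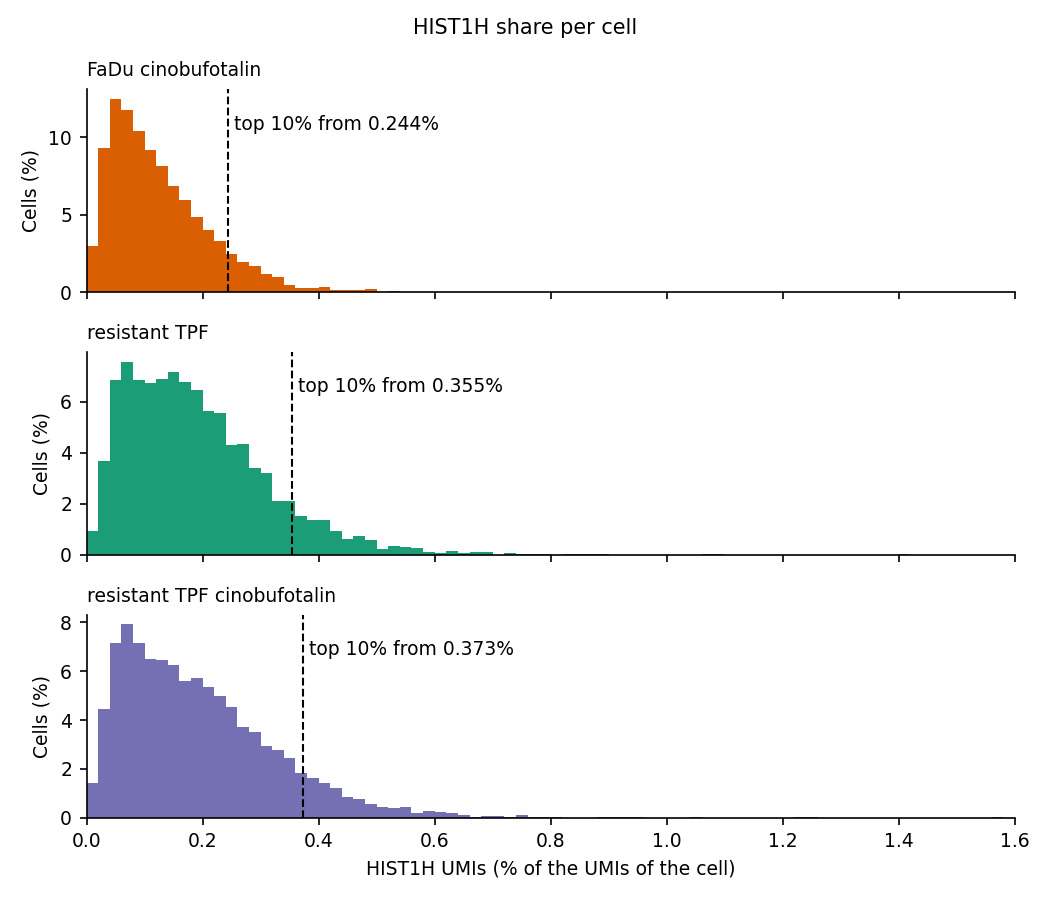
Share of cells (y axis, %) in bins of the HIST1H share of their UMIs (x axis, %) in the 3 libraries, with the limit of the top 10% as a dashed line. The limit lies at 0.244% in the FaDu cinobufotalin library and at 0.355% and 0.373% in the resistant libraries, and no gap separates the cells on either side of it.

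Histone-rich cells had median UMI counts close to those of the other cells, with 23217 against 24944, 28352.5 against 28368 and 18421 against 18544. Each cell was also thinned to 5000 UMIs, drawn from the same UMIs that chose the cells, so these values are a description. Histone-rich cells then held a median of 15, 21 and 23 HIST1H UMIs against 5, 7 and 7. Of them, 76.4%, 79.2% and 76.7% were chosen again, in a thinned top 10% that with ties held 654, 555 and 696 cells. Cells with more than 2 times their library's median UMI number, where doublets would be expected, were 0.334%, 0.215% and 0.144% of histone-rich cells and 6.06%, 0.764% and 1.21% of the others. Mitochondrial UMIs had a median of 4.62%, 4.23% and 3.99% against 3.72%, 4.01% and 3.65%. MALAT1, a nuclear noncoding RNA, had a median share of 0.211%, 0.987% and 0.886% against 0.0785%, 0.793% and 0.714%, and was thus furthest apart in the FaDu cinobufotalin library. Values among cells with 0.3% to 2% MALAT1 UMIs are given below, and beyond these its part in the results was not tested. Pairs of libraries shared 9, 13 and 9 barcode sequences, of which 0, 1 and 0 were histone-rich in both.

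All 11 squamous epithelial markers (keratins, TP63, CDH1, EPCAM and DSP) were measured at 5 CPM or more, with a summed level of 3746 to 6253 CPM in histone-rich and 3527 to 5883 CPM in other cells. None of 10 fibroblast or 12 immune markers reached 5 CPM. The fibroblast markers summed to 6.98 to 13.2 CPM against 7.02 to 11.3, and the immune markers to 5.89 to 7.14 CPM against 5.24 to 7.24, with COL1A2, LUM, MS4A1 and FCGR3A at 0 UMIs in every cell used. Of 8 endothelial markers 1, ERG, and of 5 erythroid markers 1, HBA1, passed 5 CPM. The erythroid markers summed to 7.49, 18.5 and 14.3 CPM in histone-rich cells against 5.62, 11.5 and 9.04 CPM.

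Among the 4 genes that mark these cells, HIST1H4C, which encodes histone H4, had by far the most UMIs. It stood at 2258, 2361 and 2363 CPM in histone-rich cells and 691, 839 and 859 CPM in the others. The linker histone genes were lower and differed between the FaDu cinobufotalin library and the resistant libraries. HIST1H1D was at 38.9, 348 and 467 CPM in histone-rich cells against 10.6, 87.3 and 107 CPM. HIST1H1B was at 42.5, 213 and 202 CPM against 12.3, 63.6 and 57.8 CPM, and HIST1H1E at 18.4, 107 and 135 CPM against 7.96, 39.1 and 44.9 CPM. These levels chose the cells and are given as a description. Together the 4 genes gave 66.1% of all HIST1H UMIs.

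The make-up of the histone mRNA thus differed between the libraries. H1 genes gave 10.5% (95% counting interval 10.2 to 10.8) of the HIST1H UMIs of histone-rich cells in the FaDu cinobufotalin library, against 25.7% (25.3 to 26.0) and 28.6% (28.3 to 29.0) in the resistant libraries. HIST1H4C gave 71.4%, 52.2% and 50%. The other cells of each library showed the same order, with 9.46%, 20.3% and 21.3% from H1 genes and 67.2%, 51.3% and 51.2% from HIST1H4C. Intervals here and below are exact Clopper-Pearson intervals and cover counting error only.

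Whether HIST1H genes were high in the same cells was measured by leaving each gene out of the sum in turn and choosing the top 10% by the rest. Of the 17 genes at 10 CPM or more, 12 were then at least 1.5-fold higher in the chosen cells in all 3 libraries and 16 were higher in all 3, with a median of the mean log2 ratios of 1.09. Over the 8114 other genes at that level, 0.826% were at least 1.5-fold higher in histone-rich cells in all 3 libraries. The 3 highest ratios were of linker histone genes. HIST1H1D, left out of the choice, was at 36.6, 319 and 404 CPM in chosen cells and 10.8, 90.4 and 114 CPM in the rest, a log2 ratio of 1.80 ± 0.04 (mean and SD over 3 libraries of different groups). It was higher in the chosen cells of each library, while its level in chosen FaDu cells lay under that of the remaining cells of both resistant libraries.

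HIST1H1A followed at 1.77 ± 0.02 and HIST1H1B at 1.63 ± 0.05, and HIST1H2AM, an H2A gene that overlaps HIST1H3J, stood at 1.47 ± 0.15. The remaining H1 genes, HIST1H1C at 1.32 ± 0.11 and HIST1H1E at 1.31 ± 0.21, lay next to HIST1H4H, an H4 gene, at 1.34 ± 0.41. HIST1H4C, the gene with the most UMIs, had a smaller ratio of 0.76 ± 0.37, with 0.33 in the FaDu cinobufotalin library and 0.96 and 0.98 in the resistant libraries. The H2B genes HIST1H2BD and HIST1H2BE stood at the low end, HIST1H2BD at 0.37 ± 0.09 and HIST1H2BE at 0.42, -0.12 and -0.30. When cells were chosen on a random split of their UMIs and measured in the remaining UMIs, the HIST1H share was 0.296%, 0.436% and 0.446% in the chosen and 0.105%, 0.166% and 0.171% in the remaining cells.

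**Figure D2:**
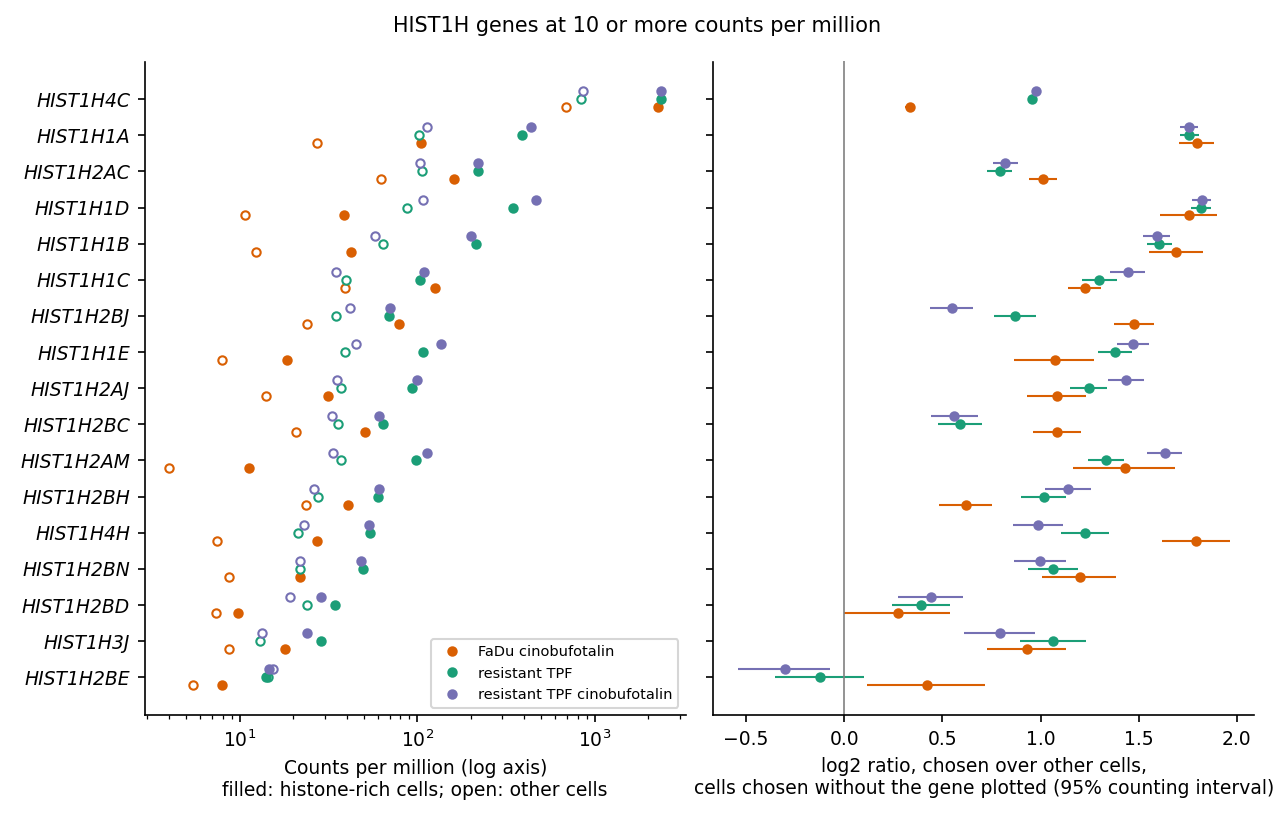
The 17 HIST1H genes at 10 CPM or more, ordered by mean level, coloured by library. Left, CPM on a log axis in histone-rich (filled) and other cells (open); right, log2 ratio of chosen over other cells when the gene plotted was left out of the choice, with 95% counting intervals. HIST1H1D and HIST1H1A lie near 1.8 in all libraries, HIST1H4C is lower in the FaDu cinobufotalin library (0.33), and HIST1H2BE straddles 0.

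Histone genes outside the HIST1 cluster were not used by the rule. HIST2H2AC, an H2A gene of chromosome 1, was at 15.7, 29.4 and 26.6 CPM in histone-rich cells against 7.57, 14.2 and 12.6 CPM, a log2 ratio of 1.06 ± 0.02. HIST2H2BF was 1.67-fold higher on average, with log2 ratios of 0.83, 0.63 and 0.77, and HIST3H2A had log2 ratios of 0.68, 0.58 and 0.60. Of 11 variant histone genes, which are made outside S phase as well, 2 were at least 1.5-fold higher in all 3 libraries, both encoding linker histones: H1FX at 399, 318 and 272 CPM against 245, 177 and 157 CPM, and H1F0 at 377, 290 and 234 CPM against 251, 186 and 134 CPM. The replication-independent H2AFZ (log2 ratio 0.12 ± 0.01) and H3F3B (0.25 ± 0.02) differed little.

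Over all genes at 10 CPM or more outside HIST1H, 67 of 8114 (0.826%) were at least 1.5-fold higher in histone-rich cells in every library and 3 (0.037%) at least 1.5-fold lower. At least 25% higher were 552 (6.8%), and at least 20% lower, the same distance on a log scale, were 34 (0.419%). The median gene was itself higher by 0.12, 0.07 and 0.14 on the log2 scale and with log2 ratios centred on it the counts were 25 higher and 8 lower. Without the FaDu cinobufotalin library 119 genes were higher and 24 lower, and without the resistant TPF library 102 were higher. Lists of genes are read below against the 10285 genes at 5 CPM or more, of which 1.02% were at least 1.5-fold and 7.37% at least 25% higher in all 3 libraries, 0.0681% at least 1.5-fold lower and 0.476% at least 20% lower. By any amount, 50.5% of them were higher and 12.3% lower in all 3 libraries.

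Genes of DNA replication were higher in histone-rich cells, by less than the histone genes themselves. Of 42 measured S phase genes, 3 (BLM, E2F8 and CCNE2) were at least 1.5-fold and 21 at least 25% higher in all 3 libraries, and 39 were higher in all 3 by any amount. Their summed level was 2265, 3999 and 3966 CPM against 1705, 3042 and 2898 CPM, a log2 ratio of 0.42 ± 0.03. When HIST1H4C was left out of the sum that chose the cells, the log2 ratios were 0.11, 0.30 and 0.41, lowest in the FaDu cinobufotalin library. E2F8, a late repressor of the E2F programme, was at 12.2, 46.3 and 43.3 CPM against 6.0, 29.2 and 26.9 CPM. CCNE2, the cyclin E2 that drives entry into S phase and activates NPAT, was at 21.5, 67.4 and 72.2 CPM against 12.3, 44.6 and 46.2 CPM, while CCNE1 had log2 ratios of 0.36, 0.07 and 0.08.

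Of 19 origin licensing genes, 0 were 1.5-fold and 5 were 25% higher in all 3 libraries. ORC6, a subunit of the origin recognition complex, was at 88.7, 227 and 208 CPM against 59.3, 145 and 133 CPM, and the licensing factor CDC6 had a log2 ratio of 0.60 ± 0.04. Of 33 replication fork genes 10 passed 25%, among them POLD3, a subunit of DNA polymerase delta (log2 ratio 0.59 ± 0.04), and POLA1, the catalytic subunit of the priming polymerase (0.53 ± 0.13), whereas PCNA, the sliding clamp, stood at 0.32 ± 0.07. Of 15 nucleotide supply genes 4 passed 25%, and TYMS (thymidylate synthase, the target of 5-fluorouracil) was at 108, 127 and 128 CPM against 74.9, 91.3 and 84.6 CPM. The ribonucleotide reductase genes RRM1 and RRM2 had log2 ratios of 0.52 ± 0.12 and 0.48 ± 0.03. With HIST1H4C left out of the sum, TYMS had log2 ratios of -0.08, 0.41 and 0.56 and PCNA -0.12, 0.25 and 0.37.

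Genes of the machinery that makes histone mRNA stayed under 1.5-fold in at least 1 library. Of 20 measured genes of histone mRNA synthesis and 3' end processing, 0 passed 1.5-fold and 4 passed 25%. CASP8AP2, a component of the histone locus body, was at 17.8, 64.6 and 63.0 CPM against 10.7, 48.1 and 41.1 CPM, and NPAT, the coactivator that switches histone genes on, at 8.69, 22.4 and 20.8 CPM against 5.40, 17.0 and 16.2 CPM. POU2F1, which binds the octamer shown above, had a log2 ratio of 0.51 ± 0.04 and HINFP, a factor of histone H4 promoters, 0.43 ± 0.02. SLBP, the protein that binds the stem-loop, was at 139, 205 and 181 CPM against 117, 163 and 138 CPM. Of 30 chaperone and chromatin assembly genes 4 passed 25% (ASF1B, CHAF1A, HMGB2 and NASP), ASF1B and CHAF1A being chaperones that hand new H3 and H4 to replicated DNA, with log2 ratios of 0.55 ± 0.02 and 0.54 ± 0.07.

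Genes for the repair of broken and crosslinked DNA were higher too. Of 28 homologous recombination and crosslink repair genes 3 (BLM, FANCI and BRCA2) passed 1.5-fold and 14 passed 25%, with a summed log2 ratio of 0.52, 0.39 and 0.46. BLM, the helicase that dissolves recombination intermediates, was at 28.5, 71.2 and 71.5 CPM against 14.7, 39.4 and 39.6 CPM. FANCI, of the Fanconi anaemia complex that acts at crosslinks such as those cisplatin makes, was at 87.6, 154 and 168 CPM against 47.7, 98.6 and 102 CPM, and BRCA2 at 16.2, 79.8 and 73.0 CPM against 10.3, 48.1 and 45.3 CPM. The levels of BLM and BRCA2 in histone-rich FaDu cells lay below those of the other cells of the resistant libraries. Of 19 replication checkpoint genes 1, FANCI, passed 1.5-fold and 5 passed 25%. The lists share members, so their counts are not separate. FANCI is in the repair and checkpoint lists and BLM in the S phase and repair lists. E2F8 and CCNE2 are in the S phase list and the list of E2F factors and cyclins below, and ATF3 is in both stress lists.

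Among E2F factors, cyclins and their inhibitors, 5 of 26 passed 1.5-fold, among them FAM111B, and CDKN1B, which encodes the CDK inhibitor p27 (15.3, 23.0 and 20.7 CPM against 8.25, 14.8 and 13.0 CPM). Genes of G2 and M phase were mostly higher, with a smaller sum than the S phase list. Of 52 measured, 1 (MKI67) passed 1.5-fold and 19 passed 25%, 44 were higher and 1 was lower in all 3 libraries by any amount, and their summed log2 ratio was 0.28 ± 0.05. MKI67, the proliferation antigen Ki-67, was at 53.5, 152 and 126 CPM against 33.0, 95.8 and 79.5 CPM. Late mitotic genes had a summed log2 ratio of 0.02, 0.16 and 0.12 over 25 genes, against 0.12, 0.07 and 0.14 for the median gene. Of the 25, 0 passed 1.5-fold, 5 passed 25% and 1 was at least 20% lower in all 3 libraries. By any amount, 14 were higher and 2 lower in all 3. PLK1, the kinase of mitotic entry and progression and a member of the late mitotic list alone, was lower, at 18.7, 13.0 and 10.6 CPM against 27.8, 17.3 and 16.5 CPM, and CCNB1 had log2 ratios of -0.31, 0.03 and 0.01. With HIST1H4C left out of the sum that chose the cells, PLK1 had log2 ratios of 0.15, -0.36 and -0.55. Its direction in FaDu thus depended on HIST1H4C.

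Genes of acute stress signalling were higher as well, and gave many of the largest differences outside the histones. Of 18 immediate early genes, the transcription factors and regulators that respond within minutes to growth factors or stress, 5 passed 1.5-fold, 11 passed 25% and 18 were higher in all 3 libraries, with a summed log2 ratio of 0.48 ± 0.04. JUN was at 183, 681 and 574 CPM against 87.4, 352 and 309 CPM, FOS at 272, 666 and 588 CPM against 161, 403 and 358 CPM, and IER2 at 287, 443 and 371 CPM against 170, 235 and 210 CPM. JUN in histone-rich FaDu cells stayed below its level in other resistant cells, so the libraries overlap although each pair within a library points one way. Of 13 measured genes of the integrated stress response, which slows translation and induces ATF4 targets, 3 (DDIT3, DDIT4 and ATF3) passed 1.5-fold and 7 passed 25%. DDIT3, also called CHOP, was at 101, 299 and 264 CPM against 54.6, 148 and 125 CPM.

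The gene with the highest ratio in its lowest library was GADD45B, a stress-induced regulator of growth and of JNK and p38 signalling, at 97.7, 300 and 237 CPM against 44.9, 121 and 95.2 CPM, 2.38-fold higher on average. Its relative GADD45A, a p53 target, was at 287, 439 and 363 CPM against 171, 250 and 200 CPM. Of 18 p53 targets it was the 1 that passed 1.5-fold. By any amount, 14 of the 18 were higher and 0 lower in all 3 libraries, and their summed log2 ratio was 0.32, 0.31 and 0.34. Among them CDKN1A had log2 ratios of 0.35, 0.08 and 0.10 and BTG2 0.38, 0.70 and 0.88. SNHG12 and SNHG1, host genes of small nucleolar RNAs whose spliced RNAs are degraded when translated, had log2 ratios of 1.17 ± 0.13 and 0.84 ± 0.04. TEX14, known for intercellular bridges in germ cells, had 1.34, 0.86 and 0.89. The remaining genes of the highest 12 were IER5L (0.88 ± 0.08), CD83 (0.85 ± 0.04) and ARC (0.78 ± 0.06).

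**Figure D3:**
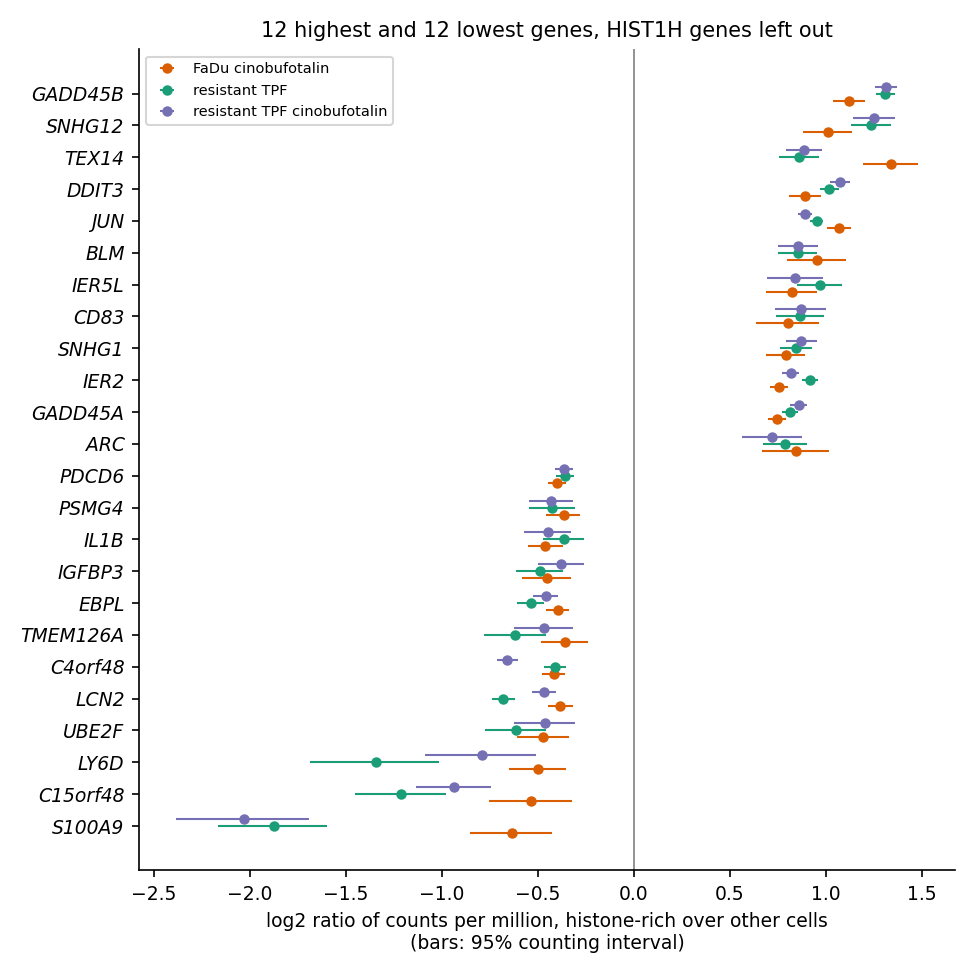
Log2 ratio of CPM in histone-rich over other cells (x axis) for the 12 highest and 12 lowest genes at 20 CPM or more outside HIST1H, by library, with 95% counting intervals. GADD45B leads at 1.12, 1.31 and 1.31, and S100A9 is lowest at -0.64, -1.88 and -2.03.

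Fewer genes were lower, and S100A9, SPRR1B and LY6D of the keratinocyte differentiation list were among those furthest apart. S100A9, a calcium-binding alarmin of differentiating and inflamed epithelium, was at 13.7, 8.06 and 5.66 CPM against 21.3, 29.6 and 23.1 CPM. SPRR1B, a precursor of the cornified envelope, was at 6.15, 5.40 and 3.26 CPM against 15.6, 23.0 and 17.3 CPM. The third gene at least 1.5-fold lower in every library was AKR1C1, an aldo-keto reductase, with log2 ratios of -0.65, -1.02 and -0.78, named after its values were seen. LY6D, a surface protein of squamous epithelium, had -0.50, -1.34 and -0.79, C15orf48 -0.54, -1.21 and -0.94, LCN2 (lipocalin) -0.38, -0.68 and -0.47, and IL1B -0.46, -0.37 and -0.45. Of the 10 measured keratinocyte differentiation genes 2 were at least 1.5-fold lower and 7 were lower in all 3 libraries by any amount, yet their sum, held up by abundant members, had a log2 ratio of 0.00, -0.13 and -0.22. For 5 of these genes the direction in FaDu depended on HIST1H4C. With that gene left out of the sum that chose the cells, S100A9 had log2 ratios of 1.45, -1.52 and -1.20, SPRR1B 0.31, -1.58 and -1.42, and LY6D 0.84, -1.02 and -0.79. LCN2 then had 0.87, -0.26 and -0.14 and C15orf48 1.22, -0.40 and -0.16, so all 5 were higher in chosen FaDu cells and lower in chosen resistant cells.

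Interferon-stimulated genes had a summed log2 ratio of -0.13, -0.22 and -0.23, with 0 of 30 genes at least 25% higher or 20% lower in all 3 libraries. IFI27, which gave most of that sum, was at 14126, 10022 and 11569 CPM in histone-rich cells against 17054, 13724 and 15229 CPM. Of 22 genes of glycolysis and glucose transport 0 were as far apart either way, and their summed log2 ratio was -0.17, -0.06 and -0.08. MALAT1 was at 4596, 11016 and 9817 CPM against 2491, 9647 and 8455 CPM, and NEAT1, another nuclear RNA, had log2 ratios of 0.68, 0.05 and 0.09. Among cells with 0.3% to 2% MALAT1 UMIs the summed log2 ratio was 0.31, 0.30 and 0.29 for the S phase list and 0.48, 0.46 and 0.41 for the immediate early list, and 35 genes were then at least 1.5-fold higher.

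**Figure D4:**
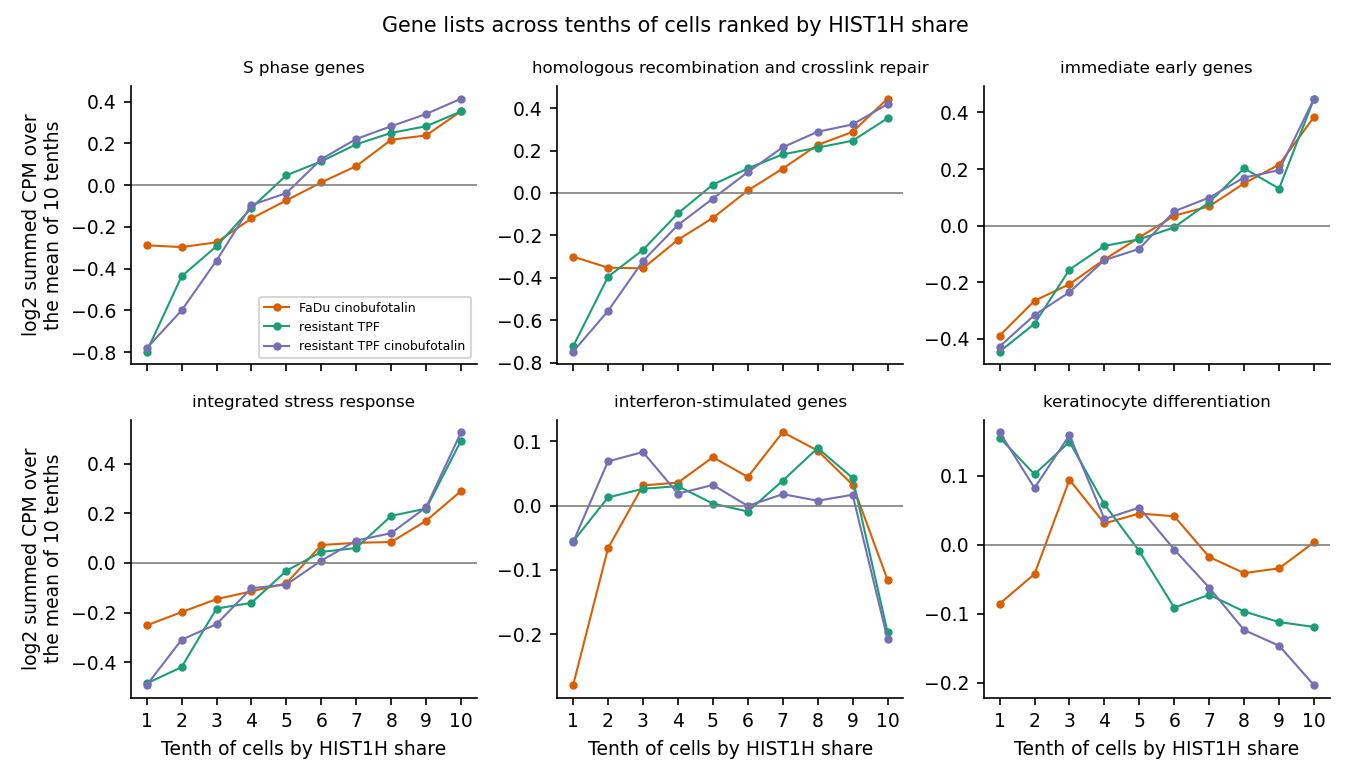
Summed CPM of 6 gene lists (y axis, log2 over the mean of the groups) in 10 equal groups of cells ordered by HIST1H share (x axis, 1 lowest, 10 highest), by library. S phase, repair, immediate early and stress response lists are higher in the upper than in the lower groups, interferon-stimulated genes drop in group 10, and keratinocyte differentiation genes decline in the resistant libraries.

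The histone-rich cells overlapped in part with the cells highest by each of 4 gene lists. Whether they form separate kinds of cell was not tested. Of them, 21.4%, 19.7% and 22.6% were also in the top 10% of their library by the S phase list, against 8.73%, 8.92% and 8.60% of the other cells. By the immediate early list it was 23.6%, 26.6% and 26.2% against 8.49%, 8.16% and 8.20%, and by the integrated stress response list 17.7%, 24.0% and 24.6% against 9.14%, 8.45% and 8.37%. By the G2 and M phase list the shares were 10.2% (7.89 to 12.9) in the FaDu cinobufotalin library, where the other cells had 9.98%, and 19.7% and 16.1% in the resistant libraries. In the top 10% by both the S phase list and a stress list were 5.85%, 7.94% and 9.93% of histone-rich cells, against 1.71%, 1.98% and 2.19% of the other cells. In the top 10% of none of the 4 lists were 52.5%, 47.9% and 45.0%, against 70.5%, 73.4% and 73.1% of the other cells.

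The S phase and the stress differences were also read with the cells highest by the other lists removed. With the top 10% of cells by either stress list removed before the choice, the S phase list had log2 ratios of 0.42, 0.42 and 0.49. With the top 10% by the S phase list removed, the immediate early list had 0.46, 0.47 and 0.48 and the stress response list 0.36, 0.55 and 0.58. With cells high by either stress list removed, the stress response list itself had 0.00, 0.30 and 0.38. The S phase list itself still had 0.31, 0.35 and 0.40 after its own top 10% was removed. The immediate early list still had 0.18, 0.22 and 0.25 after the stress removal. With these removals the stress response difference fell to 0.00 in the FaDu cinobufotalin library, and the other differences were at most partly removed. These values cannot show that the S phase and stress differences stand apart. These removals were chosen after the values were seen.

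The histone mRNA itself differed between such cells, read in the UMIs that chose them and so given as a description. Histone-rich cells in the top 10% by the S phase list and by no stress list had 29.0% (28.0 to 30.1) and 32.9% (31.8 to 34.0) of their HIST1H UMIs from H1 genes in the 2 resistant libraries, and those in the top 10% by a stress list and not by the S phase list 20.7% (20.1 to 21.3) and 21.0% (20.3 to 21.6). H2B genes gave 5.14%, 5.81% and 5.23% in the former and 12.8%, 11.3% and 10.4% in the latter. In the FaDu cinobufotalin library the H1 shares were 10.4% and 8.96%.

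To see this without choosing on histone mRNA, cells were taken as the top 10% by each list, and HIST1H was read out in them. In cells chosen by the S phase list HIST1H was 0.167%, 0.255% and 0.285% of UMIs against 0.117%, 0.186% and 0.189% in the remaining cells, a log2 ratio of 0.52 ± 0.07. In cells chosen by the immediate early list it was 0.189%, 0.284% and 0.294% against 0.115%, 0.182% and 0.188% (log2 ratio 0.66 ± 0.04), and by the stress response list the log2 ratio was 0.57 ± 0.01. In cells chosen by the G2 and M phase list it was -0.06 ± 0.10, with 0.109% against 0.122% in the FaDu cinobufotalin library. Over all cells of a library the order of the lists differed. The Spearman rank correlation with the HIST1H share was 0.36, 0.49 and 0.54 for the S phase list and 0.32, 0.36 and 0.38 for the G2 and M phase list. It was 0.31, 0.34 and 0.38 for the immediate early list and 0.13, 0.31 and 0.34 for the stress response list.

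The HIST1H genes past 1.5-fold were not the same in the S phase and the stress choices. How often other genes passed in both was not counted, so this is a description. In S phase cells, where 3.32% of 8073 other genes were at least 1.5-fold higher in all 3 libraries, 3 of the 17 HIST1H genes were, and all 3 encode linker histones: their mean log2 ratios were 0.99 ± 0.25 for HIST1H1B, 0.95 ± 0.13 for HIST1H1D and 0.78 ± 0.23 for HIST1H1E. In immediate early cells, where 6.88% of 8096 genes passed, 9 of the 17 did, and HIST1H1B (-0.06 ± 0.16) and HIST1H1E (0.08 ± 0.14) were not among them. HIST1H4H led with 1.76 ± 0.24, followed by HIST1H2BN (1.51 ± 0.19), HIST1H2BJ (1.34 ± 0.18), HIST1H2BC (1.26 ± 0.23) and HIST1H2AC (1.22 ± 0.18). In S phase cells HIST1H2BJ (-0.05 ± 0.18), HIST1H2BC (-0.09 ± 0.08) and HIST1H2BE (-0.58 ± 0.20) were not higher. HIST1H4C was intermediate in both, at 0.55 ± 0.06 and 0.56 ± 0.04. HIST1H1C, which passed in immediate early cells, had log2 ratios of -0.02, 0.60 and 0.94 in S phase cells, lowest in the FaDu cinobufotalin library. By the stress response list, where 5.3% of 8101 genes passed, 9 of 17 did, with HIST1H4H again first at 1.60 ± 0.25; by the G2 and M phase list 0 of 17 did, against 0.744% of 8064 genes.

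Most genes high in immediate early cells had long models or models that run past a stem-loop as shown above. Of the 17, all 7 with a gene model over 5000 bases, a limit set after the values were seen, were at least 1.5-fold higher in immediate early cells in all 3 libraries and 0 of the 7 in S phase cells. Of the 10 with shorter models, 2 (HIST1H3J and HIST1H1C) were higher in immediate early cells and 3 in S phase cells. Among all 23 genes at 5 CPM or more the division was less clean, since 4 more short models, among them HIST1H2BF (1.54 ± 0.26) and HIST1H2BG (1.36 ± 0.25), were higher in immediate early cells. By histone type, 7 of 8 H2B genes passed, HIST1H2BH being the exception at 0.43 ± 0.09, and 1 of 5 H1 genes. Of the 11 genes whose model runs past a stem-loop 9 passed, and of the 12 without 4. The 12 mix models close to the coding sequence with longer ones in which the search found no loop. Among the longer ones are HIST1H2BJ (6854 bases) and HIST1H3J (2725 bases).

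**Figure D5:**
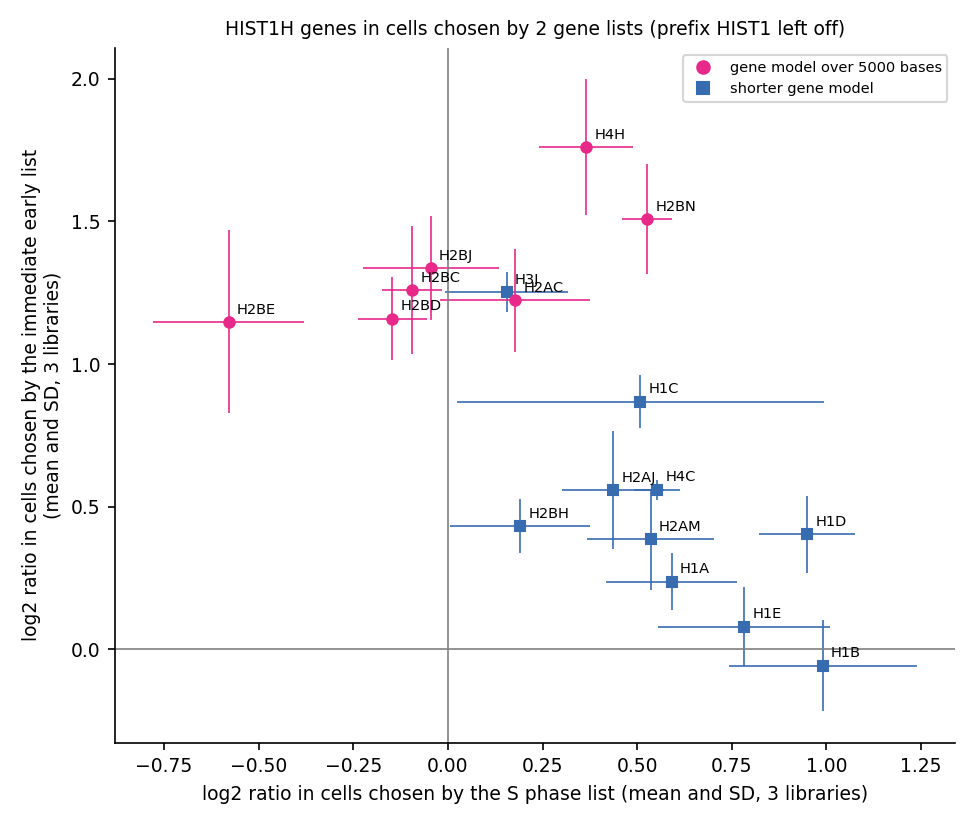
Mean log2 ratio of each of the 17 HIST1H genes in the top 10% of cells by the S phase list (x axis) and by the immediate early list (y axis), with the SD over 3 libraries on each axis. Genes with a model over 5000 bases (circles) lie at 1.15 or more on the y axis, and HIST1H1B, HIST1H1D and HIST1H1E (squares) furthest to the right.

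Cells chosen by these lists also differed in depth and nuclear RNA. Their median UMIs were 21976.5, 26337 and 16657 for the S phase list and 21246, 26372.5 and 16574 for the immediate early list, under the 24772, 28368 and 18514 of all cells used. MALAT1 had a log2 ratio of 1.15, 0.19 and 0.35 in S phase and 0.83, 0.48 and 0.61 in immediate early cells, and the median gene 0.22, 0.14 and 0.23 and 0.23, 0.13 and 0.20. Among cells with 0.3% to 2% MALAT1 UMIs, HIST1H in S phase cells had log2 ratios of 0.39, 0.37 and 0.42. Beyond this the part of these differences in the HIST1H values was not tested.

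At a common limit the libraries held different numbers of histone-rich cells. Past the 0.355% of the resistant TPF library lay 1.89% (1.56 to 2.27) of FaDu cinobufotalin cells, 10.0% of resistant TPF cells and 11.8% (11.1 to 12.6) of resistant TPF cinobufotalin cells. With every cell thinned to 5000 UMIs and a limit of 18 HIST1H UMIs the shares were 3.19%, 11.9% and 13.9%. In the FaDu cinobufotalin library 53.9% of the other cells and 35.8% of histone-rich cells had less than 0.1% MALAT1, against 9.52% and 15.98% of the other cells and 3.0% and 0.432% of histone-rich cells in the resistant libraries, and the part of this in the lower HIST1H share was not tested.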

How the data were processed

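Raw UMI counts, deposited per gene and cell barcode, were used from 3 droplet libraries primed at the 3' end of mRNA, 1 library per group. The authors made these counts with Cell Ranger 7.0 on hg38, per the file headers and the submitters' processing notes. The sources used here do not name the annotation or say how introns and strand were treated. The libraries held 6888, 6081 and 8888 barcodes with 167448330, 138850198 and 137553238 UMIs. All 58735 feature IDs matched GENCODE release 29, and 16 of 23 HIST1H genes at 5 CPM or more had 1 RefSeq promoter entry.

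UMIs of the histone-rich and of the other cells of a library were summed and scaled to CPM with pandas 2.3.3, scipy 1.17.1 and numpy 2.4.6 under Python 3.11.15, and plotted with matplotlib 3.10.9. A log2 ratio per library got a 95% Clopper-Pearson interval, which covers counting error only. A gene was called at 1.5-fold or more in the same direction in all 3 libraries, at a mean of 10 CPM or more, or 5 CPM for members of the 19 gene lists and 6 marker lists. Cells are not replicates and the cells were chosen by their HIST1H UMIs, so no p-value was computed. The SD is over 3 libraries of different groups. HIST1H levels and make-up in the histone-rich cells are a description, since they come from the UMIs that chose the cells. Differences of HIST1H genes were measured with the gene left out of the choice, in UMIs not used for the choice, or in cells chosen by another list. The calls were run on simulated cells in which 10% formed a separate histone-rich group. The real cells had a single broad peak, so that run does not measure how the calls behave here.

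Named genes were, outside HIST, mitochondrial, ribosomal protein and clone-named genes and at 20 CPM or more, the 12 with the highest value in their lowest library and the 12 with the lowest value in their highest, up to 4 members of each list, 16 set genes, HIST1H genes at 20 CPM and other HIST genes at 5 CPM. HIST1H genes under 20 CPM and AKR1C1 were named after their values were seen. The members and lists were chosen with earlier results of these data known. FAM64A, HN1, ZCCHC6 and ZCCHC11 matched no symbol and were left out under those names. No doublets were removed and no caller was run. Free RNA was not corrected for. Alternatives were other limits on UMIs, MALAT1, mitochondrial share, fold and level, other sums and weights, thinning, and leaving out each library.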

Additional observations from a re-analysis of the deposited data

Results flagged for a closer look

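The 8 endothelial markers, of which ERG alone reached 5 CPM, were the 1 list that pointed one way in FaDu and the other way in both resistant libraries with counting intervals off 0. Their summed log2 ratio in histone-rich over other cells was 0.22 in the FaDu cinobufotalin library, -0.22 in the resistant TPF library and -0.19 in the resistant TPF cinobufotalin library, at summed levels of 14.4 to 30.0 CPM. The difference between the libraries was not tested.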

How the results depend on the processing

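No paired analysis was possible because each group had 1 library. The count of 67 genes higher in histone-rich cells was 39 with cells ranked at 5000 UMIs, 116 for the top 5%, 24 for the top 20%, 35 at 0.3% to 2% MALAT1, 25 centred on the median gene, 203 and 20 at a minimum of 1 and 50 CPM, and 552 and 5 at 25% and 2-fold. The count of 3 lower genes was 5 without the 4 HIST1H genes known for polyadenylated mRNA, 0 without HIST1H4C, 8 centred on the median gene, 24 and 0 at 1 and 50 CPM, and 34 and 1 at 20% and 2-fold. Leaving out 1 library at a time gave 74 to 119 higher and 3 to 24 lower genes, the most without the FaDu cinobufotalin library.

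The mean log2 ratio of the S phase list, 0.42, was 0.30 at 0.3% to 2% MALAT1, 0.31 centred on the median gene and 0.27 without HIST1H4C in the sum, where the libraries had 0.11, 0.30 and 0.41. That of the G2 and M phase list, 0.28, was 0.23 without HIST1H4C and 0.17 centred. That of the immediate early list, 0.48, was 0.44 with ranking at 5000 UMIs, 0.58 for the top 5%, 0.39 for the top 20%, 0.44 without the 4 polyadenylated genes and 0.37 centred. The log2 ratio of HIST1H in S phase cells, 0.52, was 0.39 at 0.3% to 2% MALAT1 and 0.44 without HIST1H4C, and 0.66 in immediate early cells. That of the stress response list, 0.49, was 0.23 without the cells high by either stress list, with 0.00, 0.30 and 0.38 by library, and moved by less than its SD under the other alternatives. That removal gave 0.21 for the immediate early and 0.23 for the G2 and M phase list, and removing the cells high by the S phase list gave 0.36 for that list. At the FaDu limit, 10.0% of FaDu cinobufotalin and 30.1% of resistant TPF cinobufotalin cells were histone-rich, and at 5000 UMIs 3.19% and 13.9%. Of 45 named genes at least 1.5-fold apart on average, 719 of 720 means over the libraries kept their direction. The exception was C15orf48, at 0.22 without HIST1H4C in the sum. By library, 5 of 1755 values turned, all in FaDu without HIST1H4C in the sum: C15orf48 (1.22), S100A9 (1.45), LY6D (0.84), SPRR1B (0.31) and PRIM1 (-0.21). The means of S100A9, LY6D and SPRR1B were then -0.42, -0.32 and -0.90. LCN2, under 1.5-fold on average, turned to a mean of 0.16. The 1755 values cover the 45 genes only. Other named genes under 1.5-fold on average also turned in FaDu without HIST1H4C in the sum. Among them were TYMS (-0.08), PCNA (-0.12), PLK1 (0.15), CCNB1 (0.14) and IGFBP3 (0.37, with 0.03 in the resistant TPF library). The causes were not tested.

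With 0.3% to 2% MALAT1 the FaDu cinobufotalin library kept 1505 cells and 150 histone-rich cells, so its ratios there rest on fewer UMIs. At 5 to 10 CPM single genes rest on few UMIs per library.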
